A study of Mus musculus with 8 samples.

Results

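The Wnt genes examined here were 44 of the 20807 autosomal protein-coding genes of GENCODE release M21. They were chosen by symbol, as every *Wnt* ligand and *Fzd* receptor gene on the autosomes together with 15 named co-receptors, regulators and targets of the pathway. By role they were 19 ligands, 10 Frizzled receptors, 2 co-receptors, 5 genes of the R-spondin axis, 2 secreted inhibitors and 6 intracellular and nuclear genes. The data were peak lists from ChIP-seq, the sequencing of immunoprecipitated chromatin, for H3K27ac in 4 mouse breast tumors. H3K27ac is acetylation of histone H3 on lysine 27, which is found at promoters and enhancers in use. The 2 control tumors came from PyMT;Rag1KO mice and the 2 test tumors from K14-TSLPtg;PyMT;Rag1KO mice, all on the Balb/c background, and all mice had received CD4+ T cells by injection when 4 weeks old. PyMT is the polyoma middle T oncogene driven in mammary epithelium by the MMTV promoter, Rag1KO mice make no T or B cells of their own, and K14-TSLPtg mice express thymic stromal lymphopoietin (TSLP), an epithelial cytokine, from the keratin 14 promoter. Sample titles use the word tumor for the control group and cyst for the test group. Each list came from a piece of whole tumor, so fewer cells of a type and less acetylation per cell cannot be told apart.

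Wnt proteins are secreted, lipid-modified ligands that bind a Frizzled receptor and the co-receptor Lrp5 or Lrp6, which stops the destruction of β-catenin and lets it drive transcription with factors of the TCF/LEF family. R-spondins, acting through Lgr receptors, raise the sensitivity of cells to Wnt by removing the ubiquitin ligases Rnf43 and Znrf3, which otherwise take Frizzled proteins off the cell surface. In the mammary gland the pathway is known for its part in branching and stem cell maintenance, and *Wnt1* was found as a gene activated by mouse mammary tumor virus.

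For each gene, H3K27ac coverage was taken as how many percent of the bases up to 10 kb before and after the transcription start site (TSS) lay in peaks, and a promoter was called acetylated in a tumor when a peak overlapped 1 kb either side of the TSS. Group differences are given in percentage points of coverage as the test mean minus the control mean, with the SD over the 4 possible test and control pairs. With 2 tumors a group the smallest 2-sided p of an exact permutation test was 0.333, so no difference could pass that test. Other tests were not run, and genes are described by whether both tumors of one group lay above both of the other. The lists hold between 59762 peaks (test 2) and 69861 peaks (control 1), read depth is unknown, and no peak has a height.

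Marker genes of the cell types that a tumor piece can hold were measured in the same way. Luminal epithelial markers had the most coverage, with a list mean of 32.8% to 37.6% in the 4 tumors and an acetylated promoter in all 4 tumors for 8 of 10 genes, although *Foxa1* was at 0. The mean of the myeloid list was 12.5% in both control tumors, 11.0% in test 1 and 7.19% in test 2, and all 9 covered genes had the lower mean in test tumors. Fibroblast markers averaged 5.25% and 3.24% in control tumors and 3.14% and 0.909% in test tumors, and endothelial markers 4.65% and 2.61% against 1.64% and 0.794%. For both of these lists each of the 7 covered genes had the lower mean in test tumors. Myoepithelial markers varied within the groups, at 5.47% and 2.16% in control tumors and 5.89% and 1.53% in test tumors. T cell markers had little coverage, with list means of 0.159% to 1.42%, and the adipocyte and epidermal lists lay between 1.05% and 2.89%. The part of cell makeup in the results below was not tested.

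H3K27ac at the Wnt genes was split by role, with receptors acetylated and most ligands bare. In all 4 tumors a promoter peak was present at 18 of the 44 genes (40.9%), and 19 genes (43.2%) had none in any tumor. Across all 20807 genes, 50.9% had a promoter peak in every tumor and 41.4% in none. Among ligands 2 of 19 promoters (10.5%) were acetylated in every tumor and 14 (73.7%) in none. Among the other 25 genes 16 (64.0%) were acetylated in every tumor and 5 in none. Frizzled receptors were the largest acetylated set, with 8 of 10 promoters marked in all 4 tumors. The 4 tumors were alike in number, with 21 and 22 acetylated Wnt gene promoters in control 1 and control 2, and 24 and 20 in test 1 and test 2. Some coverage anywhere within 10 kb was found at 32 of the 44 genes (72.7%), against 69.1% of all genes. The 12 genes without any were the ligands *Wnt1*, *Wnt2*, *Wnt3*, *Wnt3a*, *Wnt6*, *Wnt7a*, *Wnt8b*, *Wnt10a*, *Wnt11* and *Wnt16*, the receptor *Fzd10* and the R-spondin *Rspo1*.

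**Figure D1:**
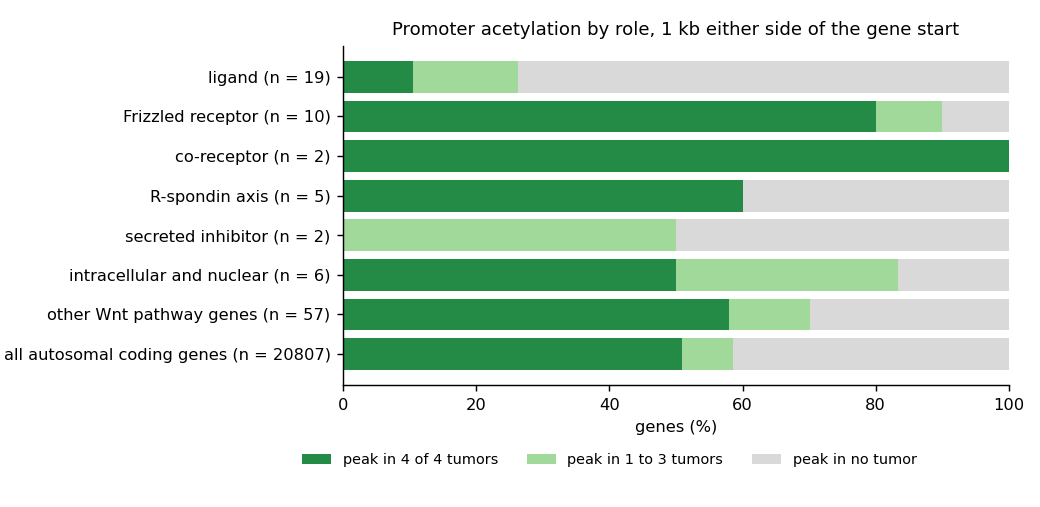
Share of genes in percent (horizontal axis) by role, with bars split into promoters that had an H3K27ac peak in all 4 tumors, in 1 to 3 tumors and in no tumor. Ligands stand out with 73.7% bare promoters, while 80.0% of Frizzled promoters carried a peak in all 4 tumors.

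Most of the bare ligand promoters were not poor in CpG dinucleotides, the sequence feature that most acetylated promoters in these tumors shared. RefSeq sequences of 250 bases before to 50 after a start (GRCm38.p6, the assembly also called mm10) were found within 1 kb of the TSS for 29 of the 44 genes. The observed over expected CpG ratio, the CG count set against the count expected from the C and G content, had a median of 0.791 over the 12 bare ligand promoters with a sequence, and 9 of them (75%) reached 0.6. Across all genes with a bare promoter the median was 0.256 (n = 4772), and 20.4% reached 0.6. Genes with a promoter peak in all 4 tumors had a median of 0.797 (n = 7785), and 10 such Wnt genes a median of 0.804. The promoters of 3 genes are shown with each CG in capitals, *Wnt3a* as a ligand bare in every tumor, *Wnt5b* as a ligand acetylated in every tumor and *Axin2* as the target gene most used as a readout of the pathway. The first 2 were picked after their values were seen.
Wnt3a, chr11:59290702-59291001, minus strand: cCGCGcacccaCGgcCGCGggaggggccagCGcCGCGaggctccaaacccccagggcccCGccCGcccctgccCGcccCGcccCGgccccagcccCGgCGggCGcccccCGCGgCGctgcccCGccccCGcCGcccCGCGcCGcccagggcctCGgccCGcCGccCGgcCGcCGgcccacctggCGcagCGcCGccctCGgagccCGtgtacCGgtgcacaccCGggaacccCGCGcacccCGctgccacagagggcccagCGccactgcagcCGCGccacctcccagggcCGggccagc
Wnt5b, chr6:119544298-119544597, minus strand: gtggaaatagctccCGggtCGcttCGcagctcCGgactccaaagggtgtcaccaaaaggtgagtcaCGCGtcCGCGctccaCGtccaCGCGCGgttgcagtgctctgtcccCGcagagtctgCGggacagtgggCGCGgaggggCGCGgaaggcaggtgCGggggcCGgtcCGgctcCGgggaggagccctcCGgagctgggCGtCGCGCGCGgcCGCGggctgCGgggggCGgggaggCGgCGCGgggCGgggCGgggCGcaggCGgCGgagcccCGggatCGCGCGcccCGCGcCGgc
Axin2, chr11:108920099-108920398, plus strand: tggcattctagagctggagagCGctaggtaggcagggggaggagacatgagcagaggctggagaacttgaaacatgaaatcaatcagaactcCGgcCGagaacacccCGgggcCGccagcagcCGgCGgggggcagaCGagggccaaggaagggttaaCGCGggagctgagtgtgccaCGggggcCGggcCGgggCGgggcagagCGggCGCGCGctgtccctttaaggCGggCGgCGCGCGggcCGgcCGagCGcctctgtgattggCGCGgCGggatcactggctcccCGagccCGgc
These hold 45 CG in *Wnt3a*, 47 in *Wnt5b* and 31 in *Axin2*. Among the 12 bare ligand promoters with a sequence the CG number ran from 6 in *Wnt8b* to 51 in *Wnt4*, with a median of 29.

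Motifs of the TCF/LEF factors were then searched in the same promoters. The letters searched on both strands were AACAAAG as well as ATCAAAG, and further TACAAAG together with TTCAAAG. At least 1 of them lay in 3 of the 29 Wnt gene promoters (10.3%), those of *Fzd7*, *Wnt3* and *Wnt11*, against 13.3% of the 13566 promoters of all genes. The spelling ATCAAAG was found in the *Wnt11* promoter only among the 29, and in 2.99% of all promoters. These shares describe letters in a 300 base window and not bound sites.

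Among ligands, *Wnt5a* and *Wnt5b*, which mainly act outside the β-catenin branch, were the 2 genes with an acetylated promoter in every tumor. *Wnt5b* (chr6:119432531-119544347) had coverage of 34.6% in control 1 and 18.6% in control 2, against 36.0% in test 1 and 21.9% in test 2. Control 1 and test 1 were thus high and the other 2 tumors low, and the group difference of 2.33 percentage points was far under its SD of 12.3. Without control 2 it was -5.66 and without control 1 it was 10.3. The *Wnt5b* peak over the TSS lay in a region of 5368 bp reaching into the first part of the gene, and a second region of 2255 bp, also found in every tumor, was centered 7831 bp inside the gene in an intron. *Wnt5a* (chr14:28504750-28527448) was more even, at 16.96% in control 1 and 20.6% in control 2, against 19.5% in test 1 and 19.3% in test 2. The region over its TSS held 3392 and 3498 bp of peaks in the control tumors and 3908 and 3864 bp in the test tumors. Control 2 alone had 2 further short *Wnt5a* peaks of 417 and 200 bp, so coverage of the full window did not separate the groups.

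A further 3 ligands had an acetylated promoter in some tumors. *Wnt9b*, a ligand of kidney and craniofacial development, had 3.38% and 4.97% in control tumors, 1.98% in test 1 and 0% in test 2, and both control tumors lay above both test tumors. Its single region, just upstream of the TSS, held 677 and 994 bp of peaks in the control tumors, 396 bp in test 1 and none in test 2. The difference was -3.19 percentage points (SD 1.46 over pairings). It was 0 with peaks at least 1000 bp wide, as every *Wnt9b* peak was narrower than that. *Wnt7b*, which is expressed in mammary epithelium, had 4.52% and 2.68% in control tumors, 7.28% in test 1 and 0% in test 2, so the highest and lowest tumor were both test tumors. *Wnt9a* had a peak in test 1 only, at 0.960%.

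The remaining covered ligands carried peaks away from the promoter. *Wnt10b*, a ligand that activates β-catenin in mammary tissue, had 3.95% and 4.13% in control tumors and 4.98% and 5.63% in test tumors, and the groups did not overlap. The difference was 1.26 percentage points (SD 0.389). It was 0 with a window of 2.5 kb either side, which held no peak in any tumor. With peaks at least 1000 bp wide it was 2.81, as only the 1126 bp peak of test 2 was left. All *Wnt10b* coverage came from a region of 1258 bp centered 5469 bp downstream of the TSS. This region held 791 and 827 bp of peaks in control tumors and 996 and 1126 bp in test tumors. *Wnt1* starts 11707 bp from *Wnt10b* and had no peak in its window in any tumor. *Wnt8a*, an early embryonic ligand, had 11.5% and 10.2% in control tumors, 8.89% in test 1 and 2.77% in test 2. Both control tumors lay above both test tumors at *Wnt8a*, by -5.03 percentage points as test minus control (SD 3.61), and by -1.98 without test 2 and -8.09 without test 1. The *Wnt8a* difference was 0 with a window of 2.5 kb and with peaks at least 1000 bp wide, as neither left a peak in any tumor. Its promoter was bare, and its 5 regions lay upstream, inside and downstream of this short gene. *Wnt4*, the ligand that progesterone induces in the mammary gland, had 0.960%, 2.66%, 1.49% and 0% in control 1, control 2, test 1 and test 2, all from intronic regions about as far from the TSS as the window reached. *Wnt2b* had a single upstream region, centered at -6190 bp from the TSS and present in every tumor, with coverage of 1.80% to 4.17%.

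Frizzled receptors had an acetylated promoter in every tumor except for *Fzd9*, with a promoter peak in test 1 only, and the uncovered *Fzd10*. Mean coverage over the 10 genes was 12.3% in both control tumors, 14.1% in test 1 and 11.5% in test 2. Test 1 was also the highest and test 2 the lowest over all genes, with means of 9.18% and 9.23% in control tumors, 9.85% in test 1 and 8.60% in test 2. *Fzd7*, a Frizzled tied to mammary stem cells, was the highest, at 37.0% in control 1 and 40.1% in control 2, against 41.2% in test 1 and 34.0% in test 2. The 2 test tumors were the highest and the lowest at *Fzd7*, and its difference of -0.920 (SD 4.53) was small beside that spread. *Fzd6*, a receptor of planar cell polarity, had 17.7% and 14.9% in control tumors and 22.2% and 12.9% in test tumors, again with test 1 highest and test 2 lowest. *Fzd1* lay between 11.5% and 14.2% and *Fzd4* between 9.13% and 15.8%, with overlapping groups in both. *Fzd9* lay between 4.03% and 9.98%, mostly from an upstream region present in every tumor. The *Fzd4* window also holds the start of *Tmem135*, and that of *Fzd3* the start of *Fbxo16*.

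In 4 of the 9 covered Frizzled genes both test tumors lay above both control tumors, against 20.9% of all covered genes of the series, and in none was the reverse seen (11.7% of all covered genes). The differences were small. *Fzd2* had 13.92% and 13.94% in control tumors and 16.1% and 15.8% in test tumors, a difference of 2.0 percentage points (SD 0.182). The *Fzd2* promoter region of 3270 bp accounted for it, with 2785 and 2789 bp of peaks in control tumors and 3219 and 3156 bp in test tumors. *Fzd3* had 1.96% and 2.28% against 4.2% and 3.41%, a difference of 1.68 (SD 0.492). *Fzd5* had 11.6% and 12.1% against 12.4% and 13.1%, a difference of 0.915 (SD 0.487) that was 0.555 without test 2. With peaks at least 1000 bp wide the *Fzd5* difference was 3.34, as a control 1 peak of 969 bp dropped out. *Fzd8* had 7.86% and 6.77% against 8.09% and 7.88%, a difference of 0.670 (SD 0.644) that was 0.122 without control 2 and 1.22 without control 1. The sign was opposite for *Fzd5* with a window of 50 kb either side, at -0.328, and for *Fzd3* with peaks within 1000 bp of each other joined, at -0.407. With peaks at least 1000 bp wide the *Fzd3* difference was 0, as every *Fzd3* peak was narrower than that.

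**Figure D2:**
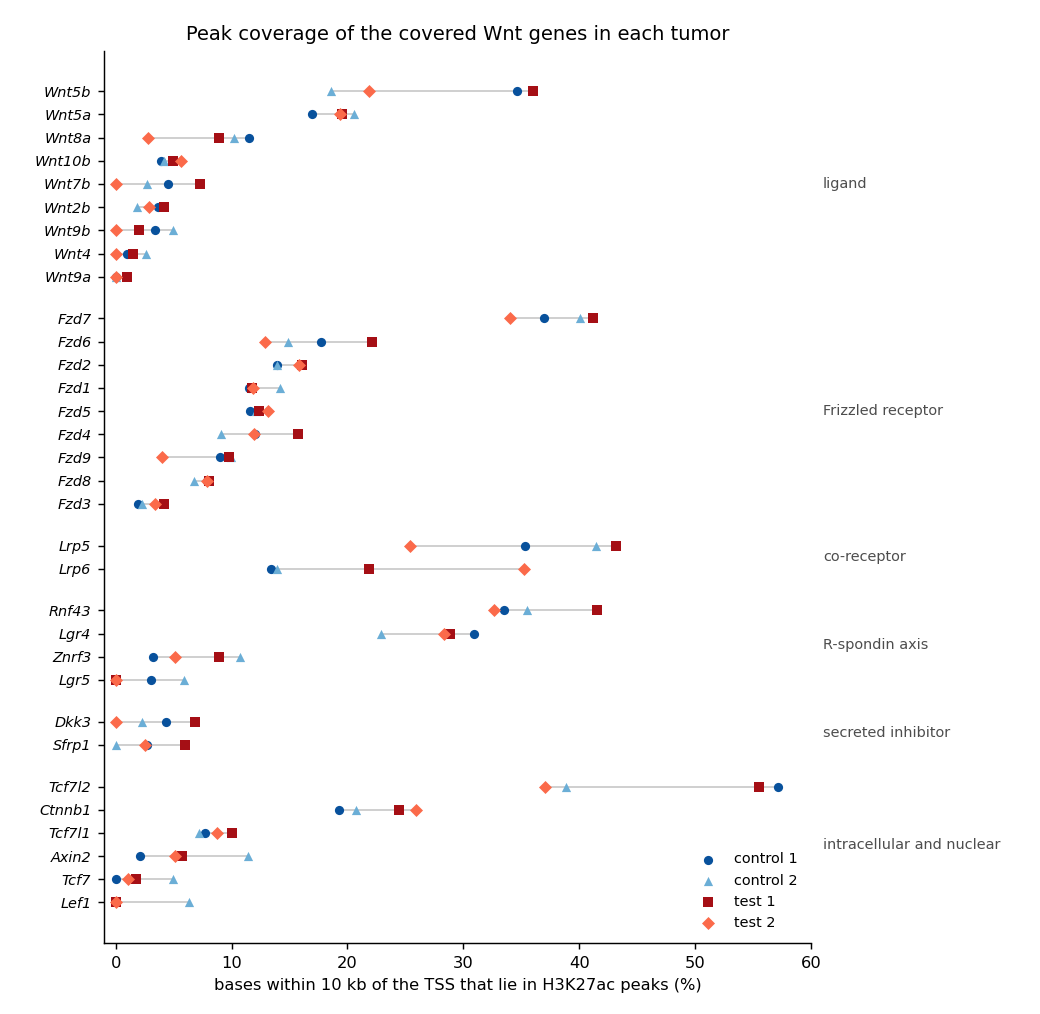
H3K27ac coverage in percent of bases within 10 kb of the TSS (horizontal axis) for the 32 Wnt genes covered in at least 1 tumor, grouped by role, with 1 symbol for each tumor and a gray line over their range. *Tcf7l2* spans 37.0% to 57.1% with 1 tumor of each group at either end, while the test symbols of *Lrp6*, at 21.9% and 35.3%, lie apart from the control symbols at 13.4% and 13.9%.

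The co-receptors *Lrp5* and *Lrp6* both had acetylated promoters in every tumor, and *Lrp6* had the largest group difference of all 44 genes. *Lrp6* (chr6:134446476-134566965) had coverage of 13.4% in control 1 and 13.9% in control 2, against 21.9% in test 1 and 35.3% in test 2. Both test tumors exceeded both control tumors, by 14.9 percentage points (SD 7.74 over pairings). The difference was 8.22 without test 2 and 21.6 without test 1. Peaks over the *Lrp6* promoter lay in a region of 4170 bp and held 1942 and 2555 bp in control tumors, and 3394 and 4170 bp in test tumors. In control 1 that stretch was broken into separate peaks, of which the widest was 942 bp, while each test tumor had it as a single peak. An upstream region, centered at -2774 bp from the TSS, held 732 bp in control 1 and none in control 2, against 387 bp in test 1 and 1352 bp in test 2.

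*Lrp6* also held both regions near Wnt genes that were found in both test tumors but in no control tumor, a pattern of 1.35% of the regions near coding genes. They lay in an intron, and the stretches that the peaks of both test tumors had in common are shown on the strand of *Lrp6*, with CG in capitals, since no control tumor had a peak there.
Lrp6, chr6:134559711-134560003, minus strand: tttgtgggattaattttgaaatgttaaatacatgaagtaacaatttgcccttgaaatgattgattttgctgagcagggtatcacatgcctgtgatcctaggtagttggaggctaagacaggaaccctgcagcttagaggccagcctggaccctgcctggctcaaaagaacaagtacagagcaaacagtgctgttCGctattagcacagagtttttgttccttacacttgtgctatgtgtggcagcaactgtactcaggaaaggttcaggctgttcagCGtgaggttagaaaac
Lrp6, chr6:134561702-134561772, minus strand: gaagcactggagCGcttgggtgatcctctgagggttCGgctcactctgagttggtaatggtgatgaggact
The first lies 6962 to 7254 bp downstream of the TSS, where test 1 had a peak of 369 bp and test 2 one of 580 bp. The second lies 5193 to 5263 bp downstream, where the peaks were 223 and 399 bp wide. Control 2 had a separate peak of 228 bp next to it, 5616 to 5843 bp downstream. Both regions were small beside the promoter region of *Lrp6*. Each stretch holds 2 CG. The 300 bases centered on each stretch held none of the TCF/LEF letters. For the 29184 regions within 10 kb of a coding TSS the 300 bases were centered on the whole region, and 19.1% held such letters.

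*Lrp5* (chr19:3584828-3686564) had more coverage than *Lrp6* in 3 of the 4 tumors, at 35.4% in control 1 and 41.4% in control 2, against 43.2% in test 1 and 25.4% in test 2. The test tumors were the highest and the lowest, and the difference of -4.13 (SD 10.9) was under the spread. It was 4.76 without test 2, -13.0 without test 1, -1.09 without control 2 and -7.17 without control 1. A short intronic region of *Lrp5* was found in both control tumors but in no test tumor (2.66% of the regions near coding genes), with 439 bp of peaks in control 1 and 265 bp in control 2. It lies close to the edge of the window, and the stretch shared by both control tumors is given on the strand of the gene.
Lrp5, chr19:3676947-3677060, minus strand: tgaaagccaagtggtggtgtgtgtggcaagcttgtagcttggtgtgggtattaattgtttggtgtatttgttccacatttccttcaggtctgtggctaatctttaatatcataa
This stretch, 9504 to 9617 bp downstream of the *Lrp5* TSS, holds 0 CG, and none of the TCF/LEF letters lay in the 300 bases centered on it.

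**Figure D3:**
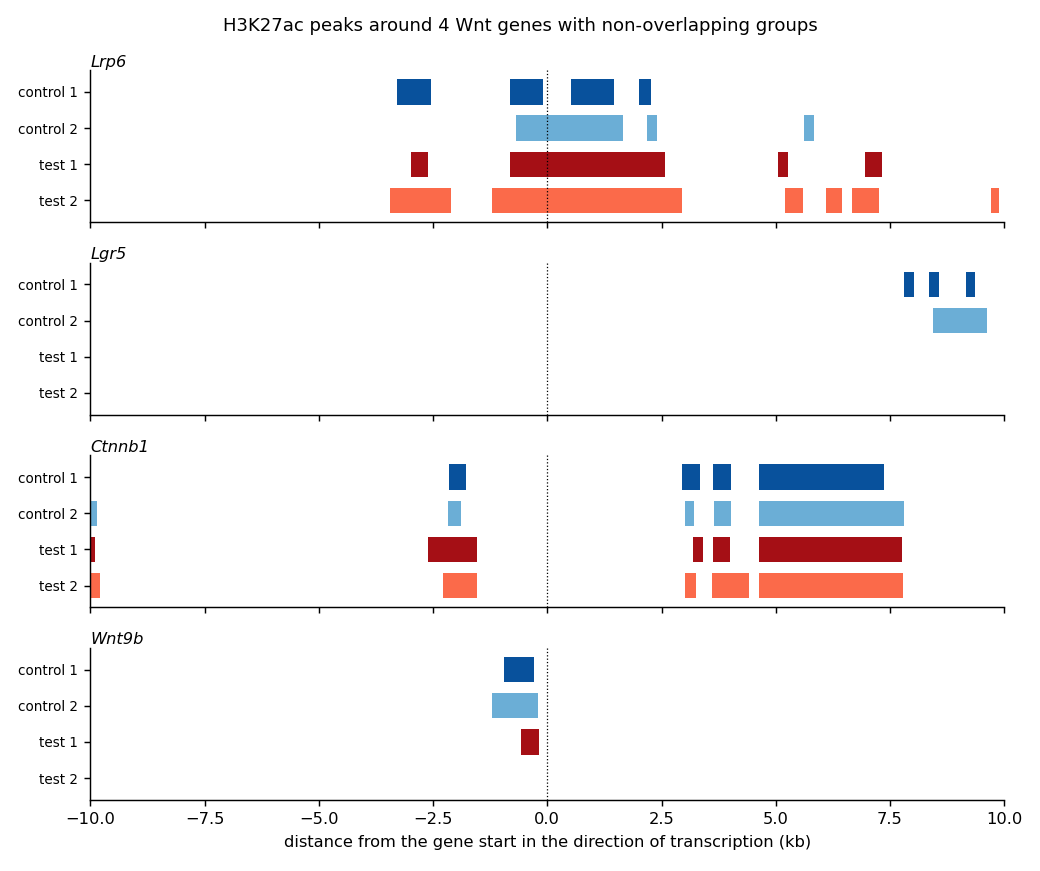
Positions of H3K27ac peaks (bars, 1 row for each tumor) around *Lrp6*, *Lgr5*, *Ctnnb1* and *Wnt9b* against distance in kb from the gene start, with downstream to the right. At *Lrp6* the peak over the start is 3394 bp wide in test 1 and 4170 bp in test 2 and is narrower or broken in the control tumors, and at *Lgr5* peaks are seen in the control tumors only.

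In the R-spondin axis, the gene whose groups did not overlap was *Lgr5*, a receptor for R-spondins and itself a target of the pathway that marks stem cells in several epithelia. *Lgr5* (chr10:115450311-115587780) had 3.04% in control 1, 5.89% in control 2 and 0% in both test tumors, a difference of -4.47 percentage points (SD 1.64), which was -3.04 without control 2. Its promoter was bare in all 4 tumors. The myeloid, fibroblast and endothelial marker lists were lower in test tumors too, as given above, and their part in the *Lgr5* values was not tested. The coverage lay inside the first part of the gene, in 3 peaks of 200 to 207 bp in control 1 and a single peak of 1178 bp in control 2, and both of its regions overlapped the gene A930009A15Rik. With a window of 2.5 kb either side, *Lgr5* was therefore at 0 in every tumor. The longest stretch with a peak in both control tumors is shown on the strand of *Lgr5*.
Lgr5, chr10:115578416-115578622, minus strand: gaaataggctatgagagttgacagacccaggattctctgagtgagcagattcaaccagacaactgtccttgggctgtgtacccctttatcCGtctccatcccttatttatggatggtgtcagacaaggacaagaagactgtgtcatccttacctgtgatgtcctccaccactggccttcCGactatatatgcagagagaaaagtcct
It lies 9158 to 9364 bp downstream of the TSS, in an intron, and holds 2 CG. None of the TCF/LEF letters lay in the 300 bases centered on this stretch.

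The other members of the axis did not separate the groups. *Lgr4*, the more broadly expressed R-spondin receptor, had 30.9% and 22.9% in control tumors and 28.8% and 28.3% in test tumors. *Rnf43*, a ubiquitin ligase that clears Frizzled proteins, had 33.5% and 35.5% in control tumors and 41.6% and 32.6% in test tumors. *Znrf3*, its partner ligase, had 3.25% in control 1 and 10.7% in control 2, against 8.91% in test 1 and 5.14% in test 2. All 3 genes had an acetylated promoter in every tumor. A further annotated *Znrf3* coding start, 63107 bp inside the gene, had a peak within 1 kb in both control tumors and none in the test tumors. *Lgr4* and *Rnf43* thus had broad acetylation while *Znrf3* had narrower peaks that varied among tumors.

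Both secreted inhibitors had little coverage. *Sfrp1*, which binds Wnt proteins, had 2.72% in control 1 and 0% in control 2, against 5.97% in test 1 and 2.54% in test 2. *Dkk3*, a divergent Dickkopf protein, had 4.31%, 2.25%, 6.83% and 0% in the same order, without a promoter peak in any tumor. For both genes test 1 was the highest tumor and the groups overlapped.

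Of the intracellular genes, *Ctnnb1*, which encodes β-catenin, had the largest group difference. *Ctnnb1* (chr9:120929216-120960507) had 19.3% and 20.7% in control tumors and 24.4% and 25.9% in test tumors. Both test tumors lay above both control tumors, by 5.18 percentage points (SD 1.19), and leaving out any 1 tumor gave 4.44 to 5.91. No peak lay within 1 kb of the annotated 5′ end of *Ctnnb1* in any tumor. Annotated coding transcripts that start 4184, 4356 and 4602 bp further in had a peak within 1 kb in all 4 tumors, so the gene counts as bare by its 5′ end and as acetylated by its transcript starts. The widest *Ctnnb1* peak was 2726 bp in control 1 and 3152 bp in control 2, against 3133 bp in test 1 and 3161 bp in test 2. The upstream region, centered at -2078 bp from the 5′ end, held 361 and 287 bp in control tumors and 1069 and 740 bp in test tumors, and it overlaps the gene 4930593C16Rik. With a window of 50 kb the *Ctnnb1* difference was 1.53, as a percent of that wider window.

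The 4 TCF/LEF genes differed widely, from a mean coverage of 1.58% at *Lef1* to 47.1% at *Tcf7l2*. *Tcf7l2*, which encodes TCF4, the factor best known from intestinal crypts, had the highest coverage of all the Wnt genes and lay at percentile 98.2 of all genes by mean coverage. Its values were 57.1% in control 1 and 38.9% in control 2, against 55.5% in test 1 and 37.0% in test 2. In control 1 and test 1 a single peak of 14776 and 14474 bp ran from the *Tcf7l2* promoter into the gene, while in control 2 and test 2 the widest peak was 5125 and 5315 bp. The split at *Tcf7l2* was thus between tumors within each group, as at *Wnt5b*, and the *Tcf7l2* difference of -1.73 (SD 15.0) ran from -11.0 without test 1 to 7.51 without test 2. The same tumors were high in total covered length, 73.1 and 73.0 Mb in control 1 and test 1 against 67.8 and 64.3 Mb in control 2 and test 2, and in the myoepithelial marker list given above. The part of either in this split was not tested. *Tcf7l1*, which encodes the factor TCF3 that mostly represses targets, had 7.74% and 7.16% in control tumors and 10.0% and 8.76% in test tumors, a difference of 1.93 (SD 0.796) without overlap of the groups, which was 0.760 with peaks at least 1000 bp wide.

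*Lef1* and *Tcf7*, the other TCF/LEF genes, are expressed in T cells as well as being targets of the pathway. *Lef1* had peaks in control 2 only, with 6.31% coverage in 4 separate peaks at and just after the TSS, so its difference of -3.15 (SD 3.64) was 0 without control 2. *Tcf7* had 0% in control 1 and 4.98% in control 2, against 1.74% in test 1 and 1.07% in test 2. The T cell marker list averaged 0.662% in control 1 and 1.42% in control 2, against 0.159% in test 1 and 0.312% in test 2, so it too was highest in control 2. The list was not uniform. *Cd4* had coverage in control 2 only (0.910%), *Cd2* was highest in control 1 (2.83%, against 1.00% in control 2 and 0% in both test tumors), and *Cd3e* was higher in test tumors (1.27% and 1.01%) than in control tumors (0% and 0.790%). The part of T cells in the *Lef1* and *Tcf7* values was not tested.

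Control 2 was also the highest tumor at *Axin2*, which encodes a scaffold of the β-catenin destruction complex and is induced by Wnt signaling in most tissues. *Axin2* had 2.11% in control 1 and 11.4% in control 2, against 5.75% in test 1 and 5.16% in test 2, and its promoter was acetylated in every tumor. The widest *Axin2* peak, which began 9 to 46 bp after the TSS, was 422 bp in control 1 and 2284 bp in control 2, against 802 bp in test 1 and 866 bp in test 2. The group difference was -1.30 (SD 5.39), 3.35 without control 2 and -5.96 without control 1, so *Axin2* did not separate the groups. The 6 genes here that are both members of the pathway and known targets of it, a set put together after the values were seen, are *Axin2*, *Lef1*, *Tcf7*, *Lgr5*, *Rnf43* and *Znrf3*. Their mean coverage was 6.98% in control 1 and 12.5% in control 2, against 9.66% in test 1 and 7.33% in test 2. Control 2 was the highest tumor at all of them except *Rnf43*, and at 21.9% of all covered genes, and since the set was chosen on these values this is a description only.

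**Figure D4:**
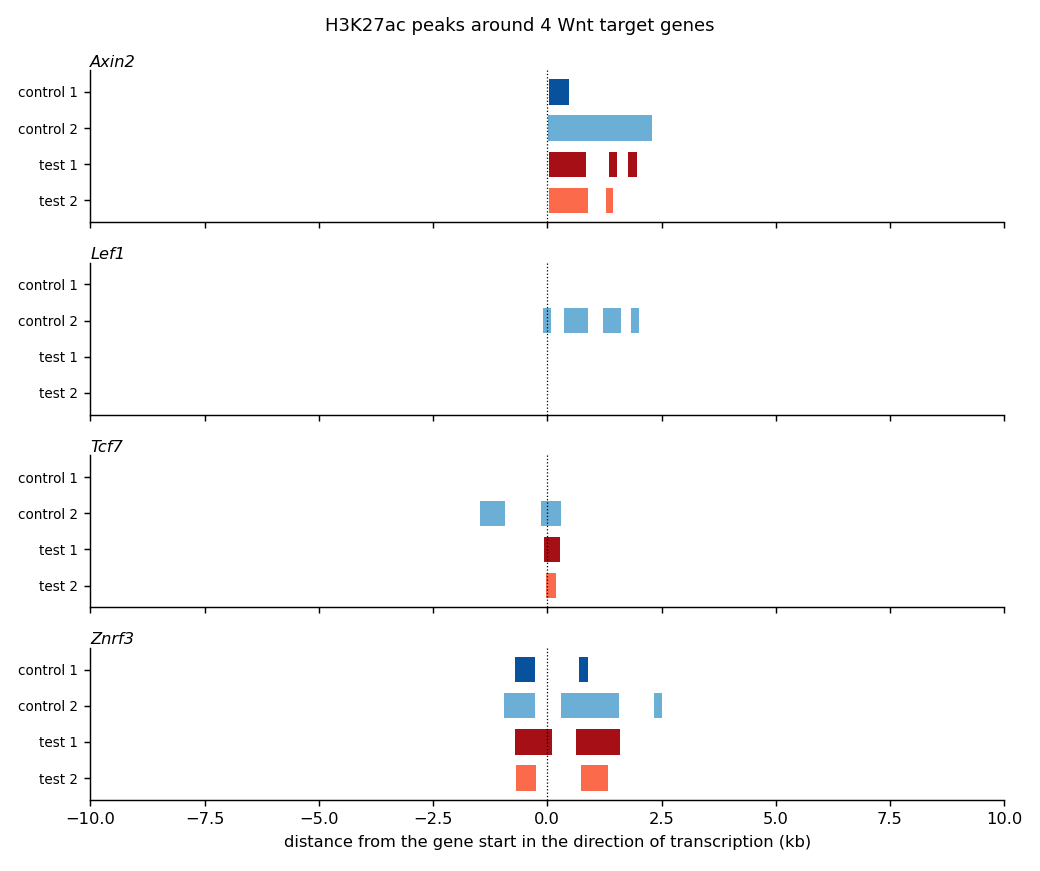
Positions of H3K27ac peaks (bars, 1 row for each tumor) around the target genes *Axin2*, *Lef1*, *Tcf7* and *Znrf3* against distance in kb from the gene start, with downstream to the right. The *Axin2* peak is 2284 bp wide in control 2 and 422 bp in control 1, and *Lef1* has peaks in control 2 only.

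Over all 32 covered Wnt genes the groups differed about as other genes did. Both test tumors lay above both control tumors at 8 genes (25%), against 20.9% of the 14382 covered genes of the series. Both control tumors lay above both test tumors at 3 genes (9.38%), against 11.7% of covered genes. The 8 were *Lrp6*, *Ctnnb1*, *Fzd2*, *Tcf7l1*, *Fzd3*, *Wnt10b*, *Fzd5* and *Fzd8*, and the 3 were *Wnt8a*, *Lgr5* and *Wnt9b*. With a window of 50 kb either side the differences of these 11 genes ran from -1.01 at *Wnt8a* to 6.85 at *Lrp6*, and that of *Tcf7l1* was 0.478. Each was smaller in size than within 10 kb, but coverage is a percent of the window, so the same peaks weigh less in a wider one. The median difference over the 32 genes was 0.571 percentage points, against 0.272 over all covered genes, and it was -1.60 without test 1. Test 1 was the highest tumor for 15 of the 32 genes (46.9%) and control 2 for 10 (31.3%), where all covered genes gave 39.4% and 21.9%.

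**Figure D5:**
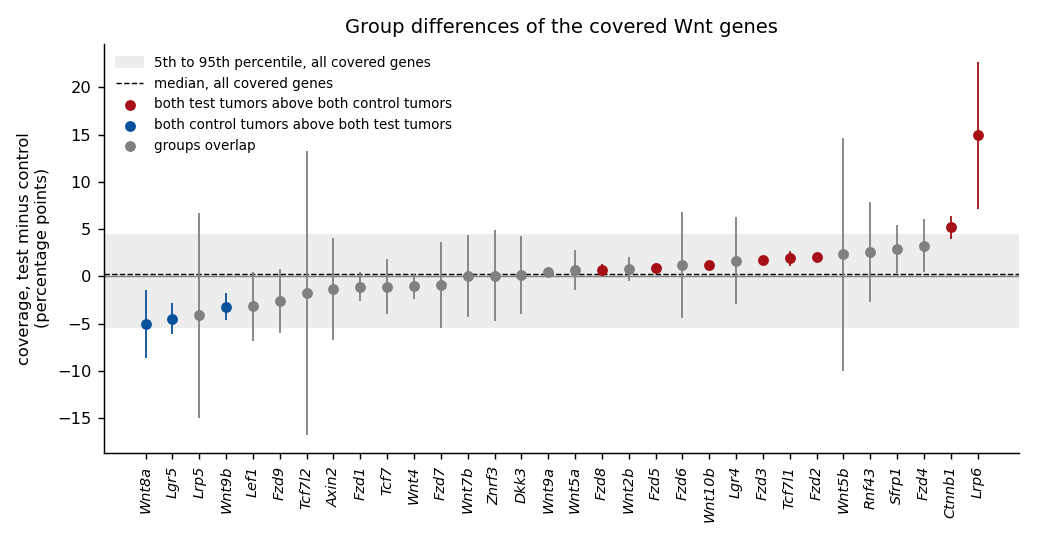
Difference in H3K27ac coverage, test minus control in percentage points (vertical axis), for the 32 covered Wnt genes in rising order, with bars for the SD over the 4 test-control pairings and a gray band from the 5th to the 95th percentile of all covered genes. *Lrp6* at 14.9 and *Ctnnb1* at 5.18 lie above the band, and 20 of the 32 genes have the higher mean in test tumors, as do 8223 of the 14382 covered genes of the series.

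None of the Wnt gene promoters was marked in a group-specific way, in both tumors of a group and in no tumor of the other (0 of the 25 marked in any tumor). Across all genes with a promoter peak in any tumor, 0.935% were marked in both control tumors only and 0.541% in both test tumors only. The windows of the Wnt genes held 84 regions, of which 33 (39.3%) had a peak in every tumor, against 52.1% of the 29184 regions near coding genes. Regions of both control tumors only numbered 3 (3.57%, against 2.66%), and those of both test tumors only numbered 2 (2.38%, against 1.35%). The former lay at *Lgr5*, *Lrp5* and *Wnt8a* and the latter at *Lrp6*.

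A wider list of 57 other autosomal genes of the pathway was read in the same windows. A promoter peak was present in all 4 tumors for 33 of them (57.9%, against 50.9% of all genes) and in none for 17 (29.8%, against 41.4%). Of its 46 covered genes, 6 had both control tumors above both test tumors (13.0%, against 11.7% of all covered genes) and 5 the reverse (10.9%, against 20.9%), with a median difference of -0.609 against 0.272. Among the genes of the list whose groups did not overlap, *Prickle1*, *Nkd2* and *Axin1* had the largest differences and are given for that reason. *Prickle1*, a planar cell polarity protein, had 32.8% and 50.3% in control tumors and 32.0% and 16.1% in test tumors. *Nkd2*, which restrains Dishevelled, had 10.6% and 6.67% against 3.31% and 1.25%. *Axin1*, the constitutively expressed counterpart of *Axin2*, had 3.46% and 9.41% against 11.9% and 13.6%. *Wif1*, a secreted Wnt inhibitor, was the one gene of the list with a promoter marked in both control tumors only (1.75%, against 0.548% of all genes). It had 0.830% and 0.820% against 0% in both test tumors. Such values are about the coverage of a single peak near the smallest width, 155 bp in control 1 and 158 bp in control 2.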

How the data were processed

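H3K27ac ChIP-seq peak lists of 4 breast tumors, each from a separate mouse per the study's methods, were used, and groups were taken from the genotype in the labels. The authors aligned reads to mm10 with BWA and called peaks with MACS2 against each tumor's matched input at a q-value of 0.01, per tumor and without pooling. The deposited lists hold the start and end of each interval in bp, with no signal, count or p-value, and per the file names they had been cleaned and merged (the smallest gap was 201 bp in every list). The sources do not say what was removed. Depth cannot be read from them, and a deeper library can have more and wider peaks. The input libraries were not analysed here. Reads of Balb/c mice were placed on a C57BL/6J reference, which can cost peaks where the strains differ.

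TSS positions were the 5′ ends of genes in GENCODE M21. Windows, promoters, differences and backgrounds were computed as given above with Python 3.11.15, numpy 2.4.6, pandas 2.3.3 and pysam 0.24.0, and tested on simulated peaks. Union regions joined peaks of the 4 tumors that overlapped or touched, and a tumor had a region when a peak overlapped it by at least 1 bp. Differences were taken over genes covered in at least 1 tumor. Named with all values were genes whose groups did not overlap, the 10 with the highest mean coverage, and the Lrp, Ctnnb1, Axin2 and TCF/LEF genes. Those at 0 in every tumor were named only, and others complete each role. The members, lists and rules were chosen with earlier results of these data known.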

Additional observations from a re-analysis of the deposited data

How the results depend on the processing

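No paired analysis was run, because the numbers 1 and 2 only name the tumors of a group and are not known to link control and test tumors. Leaving out each tumor in turn gave 3 to 12 genes with both control tumors higher, 8 to 19 with both test tumors higher, 0 to 2 promoters of control tumors only, 0 to 2 of test tumors only, 3 to 16 regions of control tumors only, 4 to 14 of test tumors only, and median differences from -1.60 to 1.92; a group of 1 tumor meets such rules more easily by construction. With peaks at least 1000 bp wide, 1 gene was higher in both control tumors, and 0 regions were found in control tumors only and 0 in test tumors only. Joining peaks within 1000 bp gave 1 region of control tumors only and 0 of test tumors only, and a difference of -0.407 for *Fzd3*. A window of 2.5 kb gave 0 regions of either kind (0 and 0). A window of 50 kb gave 5 genes higher in both control tumors, 8 and 4 such regions, a median of -0.119, and -0.328 for *Fzd5*. The causes were not tested. Counts under the alternatives have no share over all genes beside them, so they cannot be set against other genes. The same number of peaks in every tumor (the 59762 widest) gave 4 and 9 genes and a median of 0.666. Promoters marked in every tumor numbered 13 to 20 over all alternatives, and no alternative with all 4 tumors gave a gene with promoter peaks in 1 group only (the coding transcript starts of a gene were merged). *Lrp6* stayed higher in test tumors under all 9 alternatives, from 6.85 (50 kb) to 29.4 percentage points (2.5 kb), *Ctnnb1* from 1.53 to 10.5. Coverage is a percent of the window, so the sizes of differences at unlike windows are not on the same scale. Peaks at least 1000 bp wide left *Wnt8a*, *Wnt9b* and *Fzd3* at a difference of 0, and a window of 2.5 kb left *Wnt8a*, *Wnt10b* and *Lgr5* at 0. In each of these cases no peak was left in any tumor, so no difference could be read. With 2 tumors a group and no peak heights, differences in the strength of a peak were not measurable.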
